A study of Mus musculus with 16 samples.

Results

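The aminoacyl-tRNA synthetase genes were followed in ear skin of mice with dermatitis-like inflammation that had been given 1 of 2 antibodies. The family was taken by symbol: every row of the gene table named as a single-letter amino acid followed by "ars", with or without a final 1 or 2, together with Eprs or Eprs1, Farsa, Farsb and Tarsl2 or Tars3. The rule found 38 of the 45777 genes listed, 21 of them cytosolic and 17 mitochondrial. The mitochondrial enzymes are the symbols ending in 2, except Tarsl2, which is another threonyl enzyme of the cytosol and was kept with that group. All 38 had enough reads to be tested, among 19915 genes tested in all. The family was selected on fold changes of this same comparison, with the gap between cytosolic and mitochondrial enzymes already known, so its counts and p-values below describe these libraries and are not independent evidence.

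A synthetase joins an amino acid to its tRNA, the step that fixes which amino acid a codon stands for. Cytosolic and mitochondrial ribosomes use separate sets of enzymes, nearly all from separate nuclear genes; Gars and Kars each supply both compartments from 1 gene, and Eprs carries the glutamate and the proline enzyme on 1 chain. In mammals, several cytosolic enzymes sit in a multisynthetase complex held together by the scaffold proteins Aimp1, Aimp2 and Eef1e1. Atf4, the transcription factor translated when amino acids run short or proteins misfold, is known in mouse and human cells to bind and induce many cytosolic synthetase genes along with asparagine synthesis, serine synthesis and amino acid import.

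The 3 anti-OSM libraries came from mice injected into the skin every other day with 20 µg of an antibody that neutralises oncostatin M, a cytokine of the interleukin 6 family. The 3 anti-Ly6G libraries came from mice injected into the peritoneum with 200 µg of a neutrophil-depleting antibody, 2 days before and 1 and 4 days after MC903. Both groups are labelled wild type, of the C57BL/6 strain, and had MC903 (calcipotriol, a vitamin D analogue) on both ears daily for 10 days, at 50 µM in 20 µL of ethanol. Antibody, route and schedule differ together, no isotype antibody, age, sex or library batch is given for these groups, and a batch difference cannot be told apart from the antibodies. Of 16 samples in the labels, the 5 control and 5 MC903 samples without an antibody were not analysed here. With no such reference in the fit, lower with anti-OSM and higher with anti-Ly6G cannot be told apart. Whether replicates are separate mice is not stated, and the p-values therefore reflect a spread among libraries that may be technical.

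The libraries held 52163179 to 64122588 counted reads. The first principal component of all tested genes carried 43.6% of the variance and put the groups apart, with anti-Ly6G replicate 3 nearest to the anti-OSM libraries. Keratinocyte genes were abundant in all 6 libraries, from 22429 to 26768 CPM (reads scaled to a common library size) summed over 10 markers with anti-OSM and from 26133 to 33064 with anti-Ly6G, and ear muscle and cartilage genes were present in all 6 as well. Neutrophil markers summed to 68.99 to 123 CPM with anti-OSM and 50.4 to 80.5 CPM with anti-Ly6G; 4 of 8 were testable, and 0 passed in edgeR (2 higher at an unadjusted p under 0.05; 1 higher in DESeq2 and 0 in limma-voom).

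Promoter sequence is shown first, for the members that were lower and for those that were not. RefSeq promoter windows of GRCm38.p6 (the mm10 assembly) run from 250 bases before to 50 bases after a gene's start and were matched by gene ID for 28 of the 38 genes. Windows for Cars, Lars, Vars, Hars, Hars2, Nars, Wars, Rars and Pars2, among others, were not found. The windows were searched on both strands for TGATGNAA, the core of the C/EBP-ATF response element that Atf4 binds with C/EBP partners. It was found in 5 of the 14 cytosolic windows and in 0 of the 14 mitochondrial ones, against 4.51% of the 27025 genes with a window and 3.08% of the 14438 tested genes with one. A match is shown for each of the 5 genes with 11 bases on each side, on the strand of the gene, with the 8 matching letters in capitals.
Aars, chr8:111033840-111033869: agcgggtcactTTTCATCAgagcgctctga
Gars, chr6:55037960-55037989: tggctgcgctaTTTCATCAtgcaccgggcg
Iars, chr13:49682126-49682155: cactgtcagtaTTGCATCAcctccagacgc
Tars, chr15:11399655-11399684: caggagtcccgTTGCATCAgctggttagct
Yars, chr4:129189895-129189924: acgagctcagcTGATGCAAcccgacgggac
Tars lies on the minus strand and the other 4 genes on the plus strand. The match reads forward in Yars and in the reverse direction in the other 4. Counted from the start used in the promoter table, which for Aars and Yars lies inside the span listed for the gene, the Gars match covers positions -30 to -23 and that of Tars -15 to -8, while those of Iars (8 to 15), Yars (4 to 11) and Aars (10 to 17) lie after the start.

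All 5 genes with the core were among the 16 cytosolic genes called lower with anti-OSM (10 of these 16 had a window); the 4 cytosolic genes with a window that were not called had none. The full cyclic AMP response element TGACGTCA was in 0 of the 28 member windows, against 2.03% of all genes with a window and 2.96% of tested ones. The E-box CACGTG was in 5 of the 28 (Aars, Farsb, Iars, Tars and Ears2), against 8.09% of all genes and 10.4% of tested genes with a window, and all 5 of these genes were called lower. No E-box overlaps the core in the 5 sites shown above. The calls come from the contrast that chose the family, so nothing is read from matches of either motif falling among called genes. A match is a run of letters and not a shown binding site, and the absence of a match says nothing about regions outside the window. The 150 bases before the start used in the promoter table, which for Aars2 also lies inside the listed gene, are shown for Aars2, the mitochondrial partner of the gene with the lowest fold change, for Gars, among the most abundant genes called, and for Qars, the most abundant member of all, with matches to any of the 3 motifs in capitals.
Aars2, chr17:45506682-45506831: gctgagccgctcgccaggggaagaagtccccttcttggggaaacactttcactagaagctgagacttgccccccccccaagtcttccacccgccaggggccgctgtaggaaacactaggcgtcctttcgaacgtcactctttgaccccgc
Gars, chr6:55037851-55038000: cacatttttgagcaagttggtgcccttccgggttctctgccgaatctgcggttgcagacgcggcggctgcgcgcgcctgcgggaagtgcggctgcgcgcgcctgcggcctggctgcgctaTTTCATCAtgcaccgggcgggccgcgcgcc
Qars, chr9:108507855-108508004: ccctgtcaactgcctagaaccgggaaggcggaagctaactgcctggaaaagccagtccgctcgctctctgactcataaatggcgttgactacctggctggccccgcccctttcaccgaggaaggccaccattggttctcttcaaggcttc
All 3 genes lie on the plus strand. The Gars stretch holds a response element core, and the Aars2 and Qars stretches hold no match.

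Most cytosolic synthetase transcripts were lower with anti-OSM than with anti-Ly6G, and all but 1 of the mitochondrial ones did not pass the test. Of the 38 genes, 17 were called lower and 0 higher at an adjusted p under 0.05 (edgeR quasi-likelihood test, Benjamini-Hochberg over all genes); over all genes tested, 6.27% were called lower and 5.81% higher. At an unadjusted p under 0.05, 19 members were lower and 0 higher, and DESeq2 and limma-voom also called 0 higher. By compartment, 16 of the 21 cytosolic genes and 1 of the 17 mitochondrial genes were lower. The median log2 fold change, anti-OSM over anti-Ly6G, was -0.37 for the cytosolic genes, or 77.3% of the anti-Ly6G level, and -0.13 for the mitochondrial genes, or 91.1%, beside 0.01 for all tested genes. In 22 of the 38 genes (17 cytosolic and 5 mitochondrial) every anti-OSM value was below every anti-Ly6G value, as in 17.3% of all tested genes. Because this contrast chose the family, nothing is read from those shares.

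**Figure D1:**
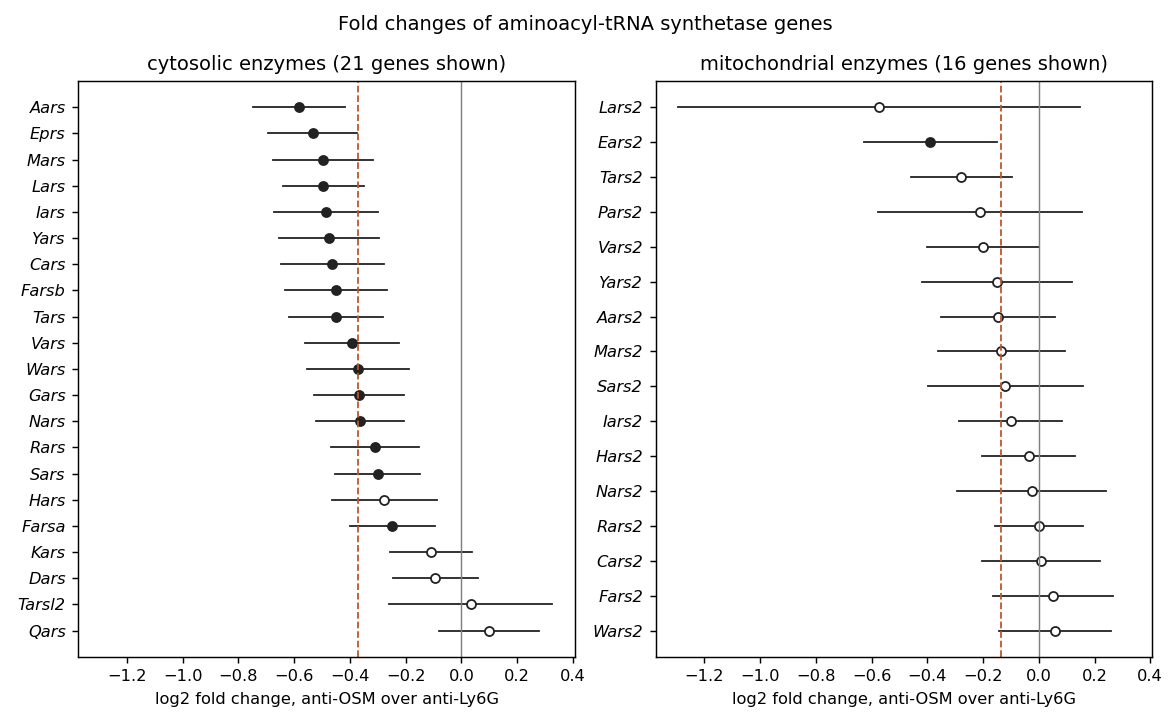
Log2 fold changes of 21 cytosolic and 16 mitochondrial synthetase genes, anti-OSM over anti-Ly6G, with 95% intervals, cytosolic and mitochondrial enzymes in separate panels (filled points were called, dashed lines are the medians). Cytosolic genes run from -0.58 (Aars) to 0.10 (Qars), and mitochondrial genes from -0.57 (Lars2) to 0.06 (Wars2). The interval of Lars2, from -1.29 to 0.15, is the widest.

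The lowest fold changes belonged to Aars, the alanine enzyme, and Eprs, the enzyme for glutamate and proline. Aars (chromosome 8, 111027778 to 111055569) had 71.2, 71.8 and 69.7 CPM with anti-OSM, against 115.7, 103.9 and 98.9 CPM with anti-Ly6G. The groups do not overlap, and the log2 fold change was -0.58 (SE 0.07, adjusted p = 0.00404). Eprs (chromosome 1, 185361417 to 185428360) had 122.5, 126.9 and 122.1 CPM with anti-OSM, against 190.1, 181.4 and 166.4 CPM with anti-Ly6G (-0.53, SE 0.07, adjusted p = 0.00479). In both genes anti-Ly6G replicate 3 was the lowest of its group, yet well above every anti-OSM library.

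The enzymes of the multisynthetase complex split into 5 that were called lower with anti-OSM, Eprs among them, and 3 that were not called. Mars, the methionine enzyme that also charges the initiator tRNA, had 50.7, 53.1 and 47.9 CPM with anti-OSM, against 74.5, 75.0 and 64.6 CPM with anti-Ly6G (log2 fold change -0.50, SE 0.08, adjusted p = 0.00968). Lars, the leucine enzyme known in mammalian cells as a leucine sensor for mTORC1, had 72.3, 73.2 and 71.7 CPM with anti-OSM, against 107.4, 103.1 and 95.8 CPM with anti-Ly6G (-0.50, SE 0.06, adjusted p = 0.0047). Iars, for isoleucine, had 72.7, 64.1 and 67.1 CPM with anti-OSM, against 101.9, 97.0 and 86.3 CPM with anti-Ly6G (-0.48, SE 0.08, adjusted p = 0.0116). None of these 3 genes overlapped between groups. Rars, for arginine, differed less, with 81.6, 86.5 and 88.0 CPM with anti-OSM, against 113.3, 103.8 and 100.4 CPM with anti-Ly6G (-0.31, SE 0.07, adjusted p = 0.0256).

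The other members of the complex, Qars, Kars and Dars, were not called. Qars, the glutamine enzyme, had 203.7, 213.9 and 232.5 CPM with anti-OSM and 197.7, 217.3 and 191.6 CPM with anti-Ly6G, with a log2 fold change of 0.10 and a 95% interval of -0.08 to 0.28. Its groups overlap and its interval lies wholly above the log2 fold changes of all 16 cytosolic genes called lower. Kars, which makes both the cytosolic and the mitochondrial lysine enzyme, had 94.4, 101.8 and 94.98 CPM with anti-OSM and 102.8, 110.0 and 101.2 CPM with anti-Ly6G (-0.11, interval -0.26 to 0.04). Dars, for aspartate, had 70.0, 72.5 and 68.0 CPM with anti-OSM and 79.6, 70.7 and 74.3 CPM with anti-Ly6G (-0.09, interval -0.25 to 0.06). In total 5 of the 8 enzymes of the complex and 11 of the 13 cytosolic enzymes outside it were called lower, with medians of -0.40 and -0.37.

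Lower genes were found in both structural classes of the enzymes: over all cytosolic genes, 8 of the 9 cytosolic class I genes and 7 of the 11 class II genes were called lower, Eprs belonging to both classes and counted in neither. Among class I enzymes, Yars, the tyrosine enzyme, had 36.5, 38.5 and 38.4 CPM with anti-OSM, against 57.2, 52.2 and 48.1 CPM with anti-Ly6G (log2 fold change -0.47, adjusted p = 0.011). Cars, for cysteine, had 43.7, 42.9 and 45.5 CPM with anti-OSM, against 66.8, 60.2 and 55.1 CPM with anti-Ly6G (-0.46, adjusted p = 0.0125). Both were thus near 72% of their anti-Ly6G level (72.0% for Yars and 72.5% for Cars). Vars, for valine, had 59.6, 68.4 and 62.4 CPM with anti-OSM, against 83.3, 87.4 and 79.0 CPM with anti-Ly6G (-0.39, adjusted p = 0.0152). Wars, the tryptophan enzyme and a gene induced by interferon gamma in human cells, had 37.0, 42.0 and 35.6 CPM with anti-OSM, against 46.9, 50.7 and 50.5 CPM with anti-Ly6G (-0.37, adjusted p = 0.0241). Wars was the 1 called member whose lowest anti-Ly6G value was in replicate 1.

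Gars and Nars were the most abundant genes called, with their order not resolved. Gars, for glycine in both compartments, had 129.8, 134.9 and 133.7 CPM with anti-OSM, against 183.8, 170.9 and 159.0 CPM with anti-Ly6G (log2 fold change -0.37, SE 0.07, adjusted p = 0.0162). Nars, for asparagine, had 144.1, 138.5 and 140.2 CPM with anti-OSM, against 195.4, 175.3 and 173.0 CPM with anti-Ly6G (-0.36, SE 0.07, adjusted p = 0.0157). Tars, for threonine, had 77.9, 75.8 and 74.7 CPM with anti-OSM, against 113.6, 102.1 and 96.2 CPM with anti-Ly6G (-0.45, SE 0.07, adjusted p = 0.0106). All 3 genes were without overlap, and their anti-OSM libraries lay within a few percent of each other. Sars, for serine and for the tRNA that carries selenocysteine, had 107.7, 115.3 and 116.3 CPM with anti-OSM, against 145.7, 140.3 and 132.1 CPM with anti-Ly6G (-0.30, SE 0.07, adjusted p = 0.0254).

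The phenylalanine enzyme is built from 2 gene products, and the genes of both subunits were called lower; the difference between them was not tested. Farsb, the beta subunit, had 39.8, 40.6 and 38.8 CPM with anti-OSM, against 59.8, 53.4 and 49.7 CPM with anti-Ly6G (log2 fold change -0.45, adjusted p = 0.0132). Farsa, the catalytic alpha subunit, had 32.1, 31.6 and 31.9 CPM with anti-OSM, against 39.6, 37.5 and 36.3 CPM with anti-Ly6G (-0.25, adjusted p = 0.0468). Farsa did not overlap between groups but sat at the threshold, and its adjusted p was above 0.05 in 5 of the 6 fits that leave out 1 library. Hars, the histidine enzyme, had 84.0, 89.5 and 88.6 CPM with anti-OSM, against 112.0, 112.2 and 93.4 CPM with anti-Ly6G; the groups did not overlap, yet it did not pass (-0.28, adjusted p = 0.0656). Without anti-Ly6G replicate 3, the lowest of its group, Hars passed at -0.36 (adjusted p = 0.0121). Tarsl2, the other cytosolic threonyl enzyme, had 9.51, 12.3 and 12.2 CPM with anti-OSM and 10.1, 12.2 and 11.1 CPM with anti-Ly6G (0.03, interval -0.26 to 0.33), at a level far below Tars.

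**Figure D2:**
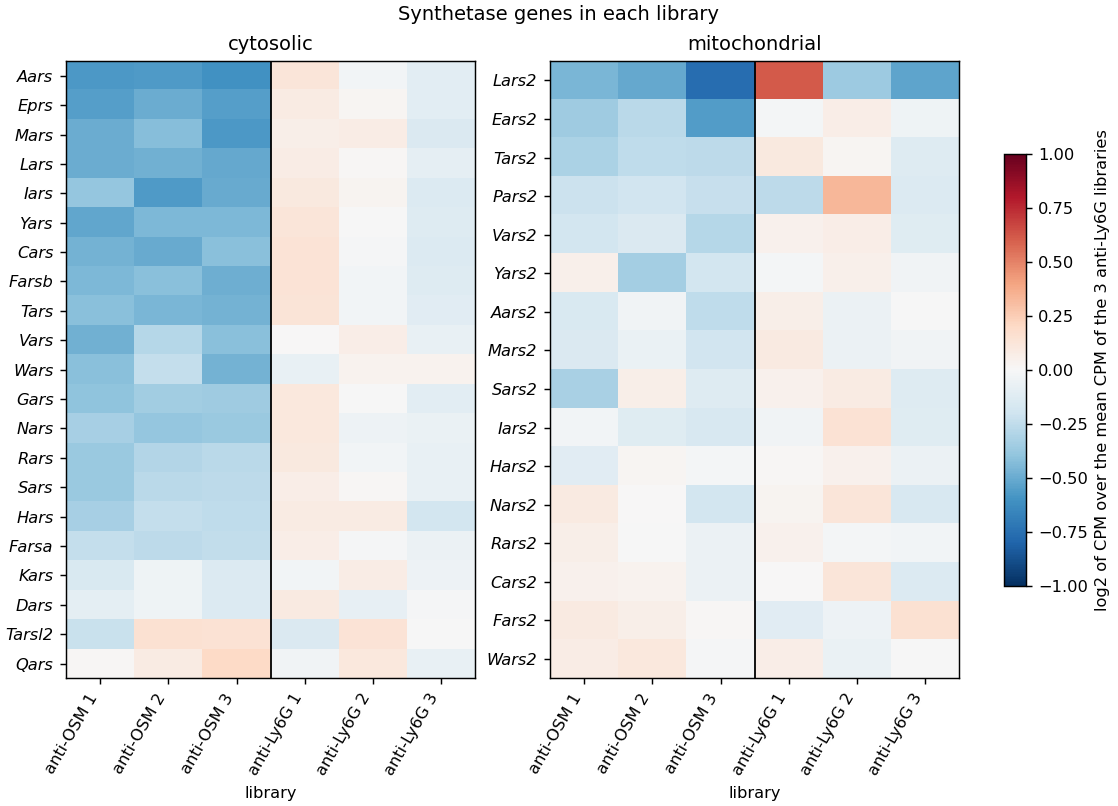
Heat map of 21 cytosolic and 16 mitochondrial synthetase genes in each of the 6 libraries, as log2 of CPM over the mean CPM of the 3 anti-Ly6G libraries, with anti-OSM libraries left of the line. Most cytosolic rows are uniformly blue (lower) in the 3 anti-OSM libraries, while Qars, Kars, Dars and Tarsl2 and most mitochondrial rows are pale. Lars2 stands out by its high value in anti-Ly6G replicate 1.

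Spread within a group was small and uneven. The coefficient of variation of the cytosolic genes had a median of 3.27% across anti-OSM libraries and 6.80% across anti-Ly6G libraries. Of the 17 members called lower, 16 had their lowest anti-Ly6G value in replicate 3 and 13 their highest in replicate 1. The number of calls moved more with the libraries than with the other settings, which gave 15 to 19 members lower: leaving out 1 library gave 6 (without anti-OSM replicate 1), 11 (without anti-OSM replicate 2), 8 (without anti-OSM replicate 3), 13 (without anti-Ly6G replicate 1), 13 (without anti-Ly6G replicate 2) and 18 members (without anti-Ly6G replicate 3) lower. Aars, Eprs, Mars, Lars, Iars and Tars passed in all 6 of these fits. Cars and Yars passed in 5, Farsb and Vars in 4, and Gars, Nars and Wars in 3. Rars passed in 2, Sars and Farsa in 1, and Ears2 in 0. The cytosolic median stayed between -0.44 and -0.35 over the 6 fits.

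In the mitochondrial set, Ears2, for glutamate, was the only gene called. It had 8.74, 9.29 and 7.62 CPM with anti-OSM, against 11.04, 11.7 and 10.8 CPM with anti-Ly6G (log2 fold change -0.39, SE 0.10, adjusted p = 0.0469). Its groups did not overlap, but its adjusted p was above 0.05 in each fit that left out 1 library, from 0.0566 to 0.156. The next by p were Tars2 and Vars2. Tars2, for threonine, had 26.2, 27.4 and 27.2 CPM with anti-OSM and 34.98, 33.1 and 29.9 CPM with anti-Ly6G (-0.28, adjusted p = 0.0575), and Vars2, for valine, had 16.9, 17.3 and 15.7 CPM with anti-OSM and 19.7, 20.0 and 17.6 CPM with anti-Ly6G (-0.20, adjusted p = 0.172). Neither passed, although neither overlapped between groups; Tars2 passed in DESeq2 (adjusted p = 0.022).

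The mitochondrial partners of Aars, Mars, Iars and, for proline, Eprs had fold changes nearer 0; Lars2, the partner of Lars, did not. Aars2, the mitochondrial alanine enzyme, had 14.1, 15.2 and 13.1 CPM with anti-OSM and 16.3, 15.1 and 15.6 CPM with anti-Ly6G (log2 fold change -0.14, interval -0.35 to 0.06). Mars2, for methionine, had 7.38, 7.81 and 7.15 CPM with anti-OSM and 8.70, 7.87 and 7.96 CPM with anti-Ly6G (-0.13, interval -0.36 to 0.09). Pars2, for proline, had 5.50, 5.58 and 5.43 CPM with anti-OSM and 5.31, 8.002 and 5.80 CPM with anti-Ly6G (-0.21, interval -0.58 to 0.15). The interval of Pars2 holds the cytosolic median of -0.37, and those of Aars2 and Mars2 end just above it. Negative fold changes nearer 0 than that median thus lie within all 3 intervals. Iars2, for isoleucine and the most abundant mitochondrial gene after Lars2, had 106.3, 99.7 and 97.1 CPM with anti-OSM and 105.9, 119.5 and 99.7 CPM with anti-Ly6G (-0.10, interval -0.29 to 0.08).

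The remaining partners ran from slightly negative to slightly positive. Yars2 (-0.15), Sars2 (-0.12), Hars2 (-0.04) and Nars2 (-0.03) were below 0, and Rars2 (0.00), Cars2 (0.01), Fars2 (0.05) and Wars2 (0.06) were at or above it on the log2 scale. Rars2, the mitochondrial arginine enzyme, is an example with a narrow interval: it had 32.7, 31.3 and 30.0 CPM with anti-OSM and 32.3, 30.9 and 30.7 CPM with anti-Ly6G, with an interval of -0.16 to 0.16 that lies above the -0.31 fitted for Rars. Wars2, for tryptophan, had 12.4, 12.7 and 11.7 CPM with anti-OSM and 12.4, 11.3 and 11.7 CPM with anti-Ly6G, with an interval of -0.14 to 0.26, above the -0.37 fitted for Wars. The interval of Rars itself, -0.47 to -0.15, overlaps that of Rars2. That of Wars, -0.55 to -0.19, does not overlap that of Wars2. Matched by amino acid, the cytosolic fold change was the lower one in 16 of 19 pairs. Lars with Lars2 and Tarsl2 with Tars2 were among the exceptions. The difference within a pair was not tested.

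Lars2, the mitochondrial leucine enzyme, had a fold change as low as Aars but rested on 1 library. It had 131.0, 126.2 and 106.3 CPM with anti-OSM and 275.2, 140.1 and 125.3 CPM with anti-Ly6G, and the groups overlap (log2 fold change -0.57, SE 0.30, adjusted p = 0.265). Without anti-Ly6G replicate 1 the fold change was -0.14. The ribosomal RNA row Rn18s-rs5 had 2196, 2092 and 1887 CPM with anti-OSM and 3705, 2466 and 1756 CPM with anti-Ly6G, also highest in anti-Ly6G replicate 1. The mitochondrial row mt-Rnr2 had 491, 457 and 511 CPM with anti-OSM and 656, 382 and 470 CPM with anti-Ly6G. In anti-Ly6G replicate 1, mt-Rnr2 and mt-Rnr1 (374 CPM) were, like Lars2, above every other library. In anti-Ly6G replicate 2, mt-Rnr2 and mt-Rnr1 were below every anti-OSM library, whereas Lars2 and Rn18s-rs5 were above them. The part of ribosomal RNA reads in the Lars2 value was not tested.

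**Figure D3:**
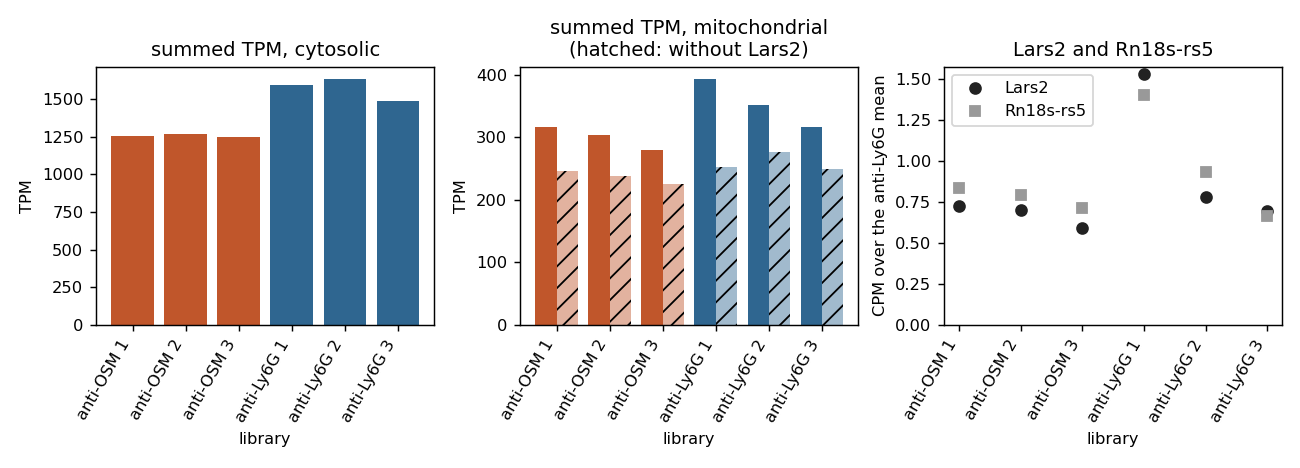
Left and middle panels show the summed TPM of the cytosolic and of the mitochondrial genes in each library (hatched bars leave out Lars2); the right panel shows Lars2 and Rn18s-rs5 in each library as CPM over the anti-Ly6G mean. Cytosolic sums are 1252 to 1268 TPM with anti-OSM and 1487 to 1636 TPM with anti-Ly6G, and Lars2 and Rn18s-rs5 are both highest in anti-Ly6G replicate 1.

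Levels of different genes were compared in the deposited TPM, a unit that allows for transcript length. Summed over the 21 cytosolic genes, the libraries held 1257, 1268 and 1252 TPM with anti-OSM, against 1593, 1636 and 1487 TPM with anti-Ly6G, with no overlap. The 17 mitochondrial genes summed to 316, 304 and 279.6 TPM with anti-OSM and 393, 352 and 316 TPM with anti-Ly6G. Without Lars2, a choice made after its values were seen, the mitochondrial sums were 247, 237 and 225 TPM with anti-OSM and 252, 276 and 249 TPM with anti-Ly6G. The ratio of cytosolic to mitochondrial TPM was 4.21 ± 0.25 with anti-OSM and 4.47 ± 0.36 with anti-Ly6G (SD, n = 3 each), and the groups overlapped. Without Lars2 the ratio was 5.33 ± 0.24 with anti-OSM and 6.08 ± 0.22 with anti-Ly6G, and every anti-OSM library (5.09, 5.34 and 5.56) was below every anti-Ly6G library (6.33, 5.93 and 5.97). Whether the ratios overlap therefore turns on 1 mitochondrial gene.

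Qars was the most abundant member, at 178.6 ± 9.42 TPM with anti-OSM and 169.8 ± 15.03 TPM with anti-Ly6G (SD, n = 3 each). Gars followed at 114.6 ± 1.12 TPM with anti-OSM and 150.1 ± 8.09 TPM with anti-Ly6G, and Nars at 109.8 ± 3.88 TPM with anti-OSM and 143.4 ± 5.57 TPM with anti-Ly6G. Gars and Nars overlap in both groups and their order is not resolved. In anti-OSM libraries Qars stood above Gars by more than their spread (171 to 189 TPM for Qars, and 114 to 116 TPM for Gars), and in anti-Ly6G libraries the nearest values were 159.99 TPM for Qars and 155.6 TPM for Gars. At the other end, Ears2 had 3.20 ± 0.38 TPM with anti-OSM and 4.41 ± 0.15 TPM with anti-Ly6G, and Pars2, next over all 6 libraries, had 4.02 ± 0.14 TPM with anti-OSM and 5.32 ± 1.18 TPM with anti-Ly6G, overlapping Ears2 in the anti-Ly6G libraries but not in the anti-OSM libraries. The cytosolic member at the lowest level was Tarsl2, at 7.32 ± 0.93 TPM with anti-OSM and 7.30 ± 0.93 TPM with anti-Ly6G.

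The median level over all 6 libraries was 50.4 TPM for cytosolic genes and 10.7 TPM for mitochondrial genes. For 16 of the 19 amino acid pairs the cytosolic enzyme was the more abundant, from 2.16 times for Cars over Cars2 to 24.7 times for Nars over Nars2. Lars2 and Iars2 exceeded their cytosolic partners, with cytosolic over mitochondrial ratios of 0.59 and 0.63. Even the scarcest member had 292 reads or more in every library, and standard errors ran from 0.06 (Lars) to 0.13 (Tarsl2) among cytosolic genes and from 0.07 (Rars2) to 0.30 (Lars2) among mitochondrial genes on the log2 scale.

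**Figure D4:**
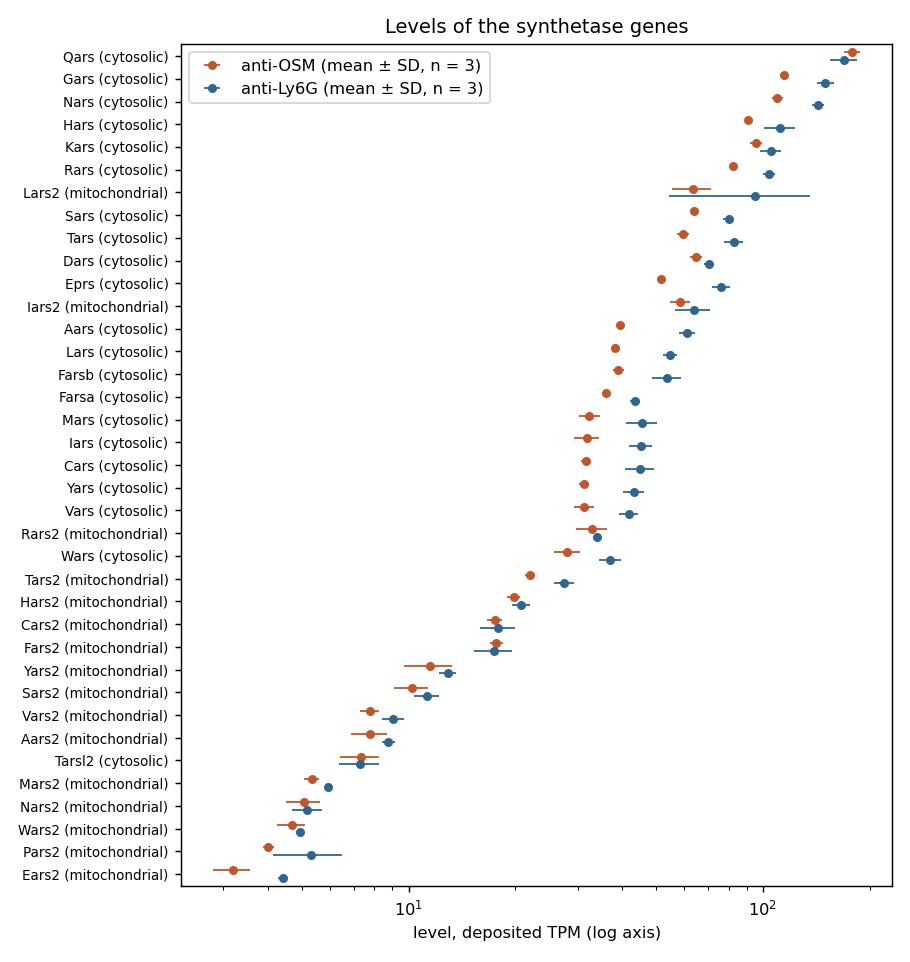
Mean levels of 21 cytosolic and 16 mitochondrial synthetase genes in TPM (log axis) with SD over 3 libraries per group, genes ordered by mean level over all 6 libraries. Most cytosolic genes lie above the mitochondrial ones, Qars being highest at 174 TPM and Ears2 lowest at 3.81 TPM over all 6 libraries, and the anti-OSM points of most cytosolic genes lie left of the anti-Ly6G points.

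The genes of proteins that hold, export or modify tRNA, and the lists after them, are given beside the share of all tested genes called. That share was 6.27% lower and 5.81% higher. These lists were chosen with earlier results of these data known, so their counts are not independent evidence. Of the 3 scaffold genes of the complex, 1 was lower: Aimp2 had 19.5, 19.1 and 19.3 CPM with anti-OSM, against 25.4, 24.3 and 24.1 CPM with anti-Ly6G (log2 fold change -0.35, SE 0.07, adjusted p = 0.0206). Eef1e1 was at -0.30 (adjusted p = 0.167). Among 17 genes of tRNA export and RNA polymerase III, 2 were lower. These were Xpot, the exporter that carries tRNA out of the nucleus, with 90.8, 93.1 and 92.1 CPM with anti-OSM, against 119.7, 125.7 and 113.4 CPM with anti-Ly6G (-0.38, SE 0.06, adjusted p = 0.0109), and Polr3d, a polymerase III subunit (-0.33, adjusted p = 0.0422). Genes for tRNA editing, amidation and formylation had 0 of 10 called in edgeR, DESeq2 and limma-voom alike (at an unadjusted p under 0.05, 1 higher and 1 lower), with Pstk at 0.25 and Aarsd1 at -0.22 the nearest to the threshold.

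Of 26 cytosolic translation factors, 3 were lower (15 lower and 0 higher at an unadjusted p under 0.05): Gspt1, the release factor eRF3a (-0.31, adjusted p = 0.0249), Eif4g1, the scaffold of the cap-binding complex (-0.36, adjusted p = 0.0262), and Eef1d, part of the exchange factor that reloads with GTP the elongation factor delivering charged tRNA (-0.26, adjusted p = 0.0423). The median of that list was -0.17, and DESeq2 called 9 of its genes lower. Leaving out any anti-OSM library or anti-Ly6G replicate 1 gave 0 calls in this list, and leaving out anti-Ly6G replicate 3 gave 5. Cytosolic ribosomal proteins had 1 of 82 lower, Rpl3l, the striated muscle paralogue of Rpl3, with 12.1, 12.6 and 14.0 CPM with anti-OSM, against 20.4, 19.9 and 20.6 CPM with anti-Ly6G (-0.65, adjusted p = 0.00521); next was Rps9 at 0.21 (adjusted p = 0.0997), and the list's median was 0.03.

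Mitochondrial translation factors had 0 of 9 called in edgeR (3 lower at an unadjusted p under 0.05; 1 lower in DESeq2 and 0 in limma-voom), with the elongation factor Gfm1 at -0.24 (adjusted p = 0.0583) and the recycling factor Mrrf at -0.27 (adjusted p = 0.109). Mitochondrial ribosomal proteins had 3 of 77 lower, namely Mrpl12 (-0.33, adjusted p = 0.0184), Mrps18b (-0.39, adjusted p = 0.0313) and Mrpl17 (-0.27, adjusted p = 0.0331), with a list median of -0.03. Leaving out 1 library gave 0 to 2 calls among the mitochondrial ribosomal proteins, 0 to 1 among the scaffold genes and 1 to 4 among the genes of tRNA export and polymerase III.

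Amino acid stress signalling and Atf4 targets had the most calls of these lists, with 18 of 29 genes lower, beside 6.27% of all tested genes. In edgeR, DESeq2 and limma-voom alike 18 were lower and 0 higher (0 higher also at an unadjusted p under 0.05), with a median of -0.39. The list was chosen with earlier results of these data known, so nothing is read from its rank. Asns, asparagine synthetase, had 40.4, 42.1 and 42.6 CPM with anti-OSM, against 96.1, 81.3 and 74.1 CPM with anti-Ly6G (log2 fold change -1.01, SE 0.10, adjusted p = 0.00212). Cth, the last enzyme of cysteine synthesis from methionine, had 4.50, 5.06 and 4.78 CPM with anti-OSM, against 16.4, 13.0 and 11.1 CPM with anti-Ly6G (-1.50, SE 0.15, adjusted p = 0.00247). Mthfd2, of mitochondrial one-carbon metabolism, had 13.9, 13.9 and 14.9 CPM with anti-OSM, against 32.9, 25.2 and 29.7 CPM with anti-Ly6G (-1.04, adjusted p = 0.00247). All 3 had a lower log2 fold change than any synthetase gene that was called. Slc7a5, the large neutral amino acid importer, had 60.6, 75.3 and 63.7 CPM with anti-OSM, against 126.3, 125.4 and 106.9 CPM with anti-Ly6G (-0.84, adjusted p = 0.00365).

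Atf4 itself, named after its values were seen, averaged 166.6 ± 6.07 CPM with anti-OSM and 217.8 ± 14.4 CPM with anti-Ly6G (SD, n = 3 each; log2 fold change -0.39, adjusted p = 0.0146). The kinases that phosphorylate eIF2 alpha upstream of Atf4, likewise chosen after their values were seen, were not called, and lay between -0.04 (Eif2ak2) and 0.13 (Eif2ak1). Gcn1, of the same list and also named after its values were seen, was called lower in edgeR (-0.47, adjusted p = 0.0223). Not every Atf4 target was lower: Ddit3, which encodes the stress factor CHOP, was at -0.17 (adjusted p = 0.331). Of 25 genes of this list with a promoter window, 6 (24%) held the response element core. Leaving out 1 library gave 9 (without anti-OSM replicate 1, and without anti-OSM replicate 3) to 17 genes of the list lower.

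**Figure D5:**
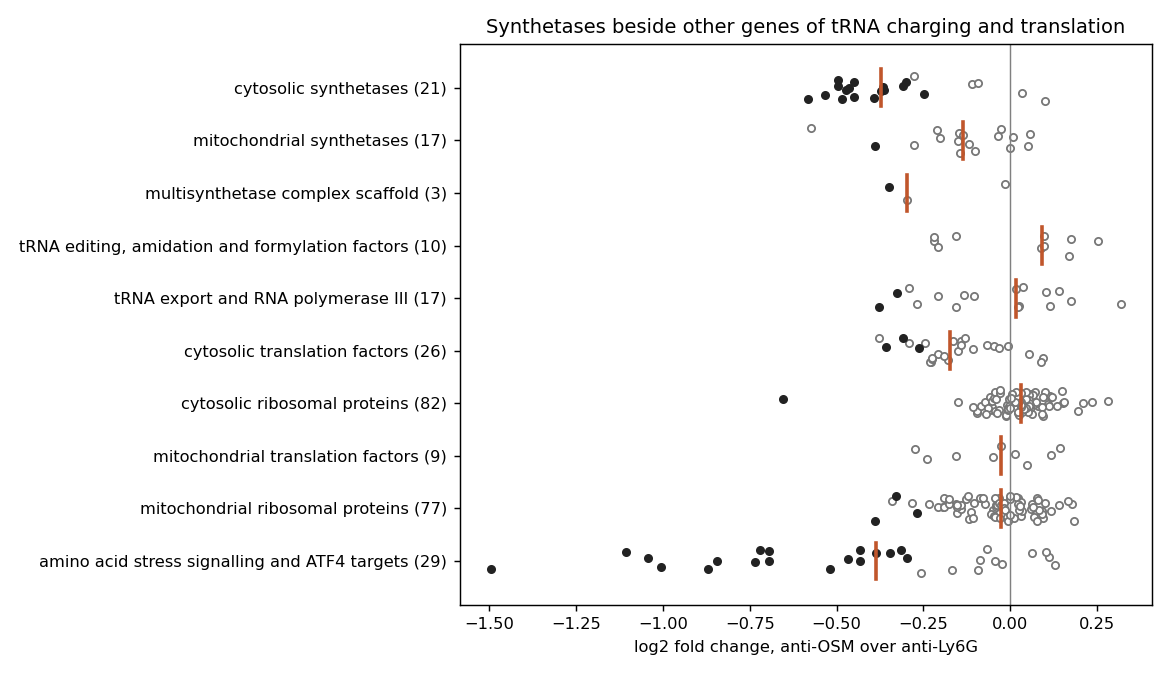
Log2 fold changes, anti-OSM over anti-Ly6G, of the cytosolic and mitochondrial synthetases beside 8 lists of genes for tRNA charging, translation and amino acid stress, with the number of tested genes in brackets. The cytosolic synthetases (median -0.37) and the amino acid stress list (median -0.39) lie left of 0, while ribosomal proteins of both compartments (medians 0.03 and -0.03) centre on it.

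Several cell type marker lists differed between the same groups. Activated keratinocyte markers had 6 of 10 lower, their sum being 2445 to 4671 CPM with anti-OSM and 6633 to 10005 CPM with anti-Ly6G. Their log2 fold changes ran from -1.78 to 0.04, with a median of -0.94. Krt6a, a keratin of wounded and proliferating epidermis named after its values were seen, was at the low end (-1.78, adjusted p = 0.0111). Resting keratinocyte markers had 2 of 10 lower, Itga6 and Krt14. Skeletal muscle markers had 9 of 10 lower (sum 3663 to 4313 CPM with anti-OSM and 5995 to 6306 CPM with anti-Ly6G), and cartilage markers 7 of 9 (252 to 264 CPM with anti-OSM and 394 to 436 CPM with anti-Ly6G). Proliferation markers had 1 of 8 lower, with overlapping sums of 662 to 712 CPM with anti-OSM and 680 to 768 CPM with anti-Ly6G. Genes were higher with anti-OSM in the lists for fibroblasts (6 of 10, sum 9916 to 10240 CPM with anti-OSM and 5956 to 8566 CPM with anti-Ly6G), eosinophils (4 of 7, 167 to 189 CPM with anti-OSM and 55.2 to 93.2 CPM with anti-Ly6G) and mast cells (5 of 8, 610.4 to 688 CPM with anti-OSM and 366 to 496 CPM with anti-Ly6G). The same held for macrophages (4 of 10, 2999 to 3628 CPM with anti-OSM and 1739 to 2648 CPM with anti-Ly6G) and dendritic cells (5 of 8, 329.7 to 412 CPM with anti-OSM and 209 to 251 CPM with anti-Ly6G). It held for T cells (2 of 8, 87.7 to 96.5 CPM with anti-OSM and 55.8 to 78.4 CPM with anti-Ly6G) and for B and plasma cells (2 of 5, 35.4 to 46.4 CPM with anti-OSM and 14.4 to 21.6 CPM with anti-Ly6G). These counts move with single libraries. Leaving out any 1 anti-OSM library gave 1 fibroblast marker higher, and leaving out anti-Ly6G replicate 3 gave 8. Over the 6 such fits, markers called higher numbered 2 to 6 for eosinophils, 4 to 6 for mast cells, 1 to 10 for macrophages (1 without anti-Ly6G replicate 2 and 10 without anti-Ly6G replicate 3), 2 to 5 for dendritic cells, 0 to 5 for T cells (5 without anti-Ly6G replicate 3, 0 in the other 5) and 2 in each for B and plasma cells. Markers called lower numbered 4 to 8 for muscle (4 without anti-OSM replicate 1), 5 to 7 for cartilage, 4 to 7 for activated keratinocytes, 0 to 3 for resting keratinocytes and 0 to 2 for proliferation. No listed marker was at 0 in all 6 libraries. In whole skin, fewer cells of a type and less RNA per cell cannot be told apart, and the part of these lists in the synthetase result was not tested.

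Overlapping genes limit some values, since the sources used here do not say whether strand was used in counting. In GENCODE M21, 14 of the 38 members have some exon overlap with a gene on the other strand, and 2 with a gene on the same strand. Under exons of a gene on the other strand lie 24.2% of the exon bases of Iars2, 10.7% of those of Fars2, 9.47% of those of Farsb and 8.52% of those of Vars2. Hars and Hars2 overlap each other at their starts, and Mars shares 1.99% of its exon bases with Ddit3 on the opposite strand. Of the exon bases of Aars, 14.3% lie under a gene on the same strand and 0.83% under a gene on the other strand. The genes that overlap Aars are Exosc6 and Gm24103, and which lies on which strand is not given here. Reads from such stretches could be assigned to either gene.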

How the data were processed

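Whole ear skin polyA RNA was sequenced. Each gene has whole-number read counts, FPKM and TPM values per library, per the file headers, as deposited by the authors. The submitters' processing notes list HISAT2 2.1.0, StringTie 2.1.3b, edgeR 3.40.2, SAMtools 1.9, bcl2fastq 2.20.0 and Trimmomatic 0.38 without roles, and mm10 among the builds; the step from reads to counts and any use of strand are not given there. Deposited counts were tested with edgeR 4.0.16 in R 4.3.3 (filterByExpr, TMM, robust quasi-likelihood F-test, 2-sided, no covariate, Benjamini-Hochberg over 19915 genes, threshold 0.05). Standard errors and 95% intervals follow from the F statistic, and CPM use TMM-scaled totals. Alternatives were DESeq2 1.42.0, limma-voom (limma 3.58.1), other scalings and filters, a replicate block and leaving out each library; the fit was also tested on simulated counts. The deposited TPM served for levels and the deposited FPKM as an alternative for the ratio of sums. Positions and promoters are RefSeq's for GRCm38.p6.

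The members and gene lists were chosen with earlier results of these data known. Named were all called members, their partners for the same amino acid, the 3 members nearest to passing, the extremes in TPM, and up to 4 called genes a list (or the 2 with the smallest p). A planned comparison of protein sequences was not run. The values of 1 member and 1 stretch of sequence are not reported here. No 2 libraries of a group agreed within sampling noise (chi-square per gene at least 26.2), so all 6 were kept as separate replicates.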

Additional observations from a re-analysis of the deposited data

How the results depend on the processing

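No called synthetase gene and neither synthetase median changed sign under any alternative. The median over all tested genes stayed within 0.02 of 0, at 0.0068 in the fit reported, -0.0016 in DESeq2 and -0.0054 without a filter. Leaving out 1 library at a time gave 240 to 1545 genes higher and 420 to 1447 lower over all genes, 6 to 18 synthetase genes lower (6 to 17 cytosolic, 0 to 1 mitochondrial), 11 to 30 genes of the context lists lower and 0 to 1 higher, and 9 to 17 amino acid stress genes lower; these fits have fewer samples. The cytosolic median ranged from -0.44 to -0.35 and the mitochondrial median from -0.16 to -0.08. Mitochondrial genes called lower numbered 1 in the fit reported, 0 without scaling beyond the total count and without a filter, and 2 in DESeq2 and with a filter of 1 CPM in 3 libraries; DESeq2 called 2 context genes higher, against 0. The cause was not tested. The ratio of cytosolic to mitochondrial TPM was 3.51 with anti-OSM and 3.74 with anti-Ly6G without Gars and Kars, and without Lars2 5.33 with anti-OSM and 6.08 with anti-Ly6G. Same-numbered replicates deviated together with correlations of 0.01, 0.04 and 0.12, so the numbers were not taken as pairs; with the replicate block, 16 synthetase genes were lower, and 1325 genes were higher and 1275 lower in all. With all 6 libraries, Farsa lost its call in 4 settings and Ears2 in 2, while Hars gained one in 1 and Tars2 in 2. The 3 libraries per group limit what can be called among low genes.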

Other observations

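The row AY036118 was the 1 gene of the table with at least 50 reads in every library of one group and none in the other: 236, 238 and 240 reads with anti-OSM, and 0 in each of the 3 anti-Ly6G libraries. The reason was not tested, and a batch difference cannot be told apart from the antibodies.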
